A study of Mus musculus with 15 samples.

Results

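Self-renewal and telomerase genes were followed here as a set of 9 named genes among the 19938 genes measured on the array. They were Myc, Hmga2, Bmi1, Klf4, Tert, Lin28b, Sall4, Nanog and Sox2. Each was read from the probe set that names that gene alone and has the highest mean over all arrays, and each of the 9 had exactly 1 such probe set. The levels of Myc, Hmga2, Bmi1 and Klf4 lay well above background in every group, those of Lin28b and Sox2 lay near background in every group, and Tert, Sall4 and Nanog lay between.

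The cells were fibroblasts of the mouse heart, called cardiac colony-forming units - fibroblast (cCFU-F) in the labels, stromal cells of the heart that found colonies when plated sparsely. Per the labels they came from male C57BL/6 mice aged 12 weeks, were sorted for SCA1 and PDGFRα and against CD31, and were then cultured. All 15 arrays hold such cultured cells, 3 arrays in each of 5 groups. The groups were large colonies without treatment at passage 5, large colonies without treatment at passage 15, small colonies without treatment at passage 5, small colonies given 50 ng/ml PDGF-AB at passage 5, and small colonies given 50 ng/ml PDGF-AB at passage 15. The treatment protocol in the labels also names AG1296, an inhibitor of PDGF receptors, but no sample is labelled with it. PDGF-AB is the heterodimeric form of platelet-derived growth factor and acts on stromal cells through PDGFRα and PDGFRβ. No group held untreated small colonies at passage 15, so colony size and PDGF-AB cannot be told apart wherever treated small colonies are set against large ones. Nothing in the labels ties the 3 arrays of a group to different cultures or mice. The p-values therefore rest on the spread of these arrays alone, and that spread may be technical.

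These genes act at different points of one broad programme. Myc encodes a transcription factor that pairs with MAX on E-box sequences and drives ribosome production, metabolism and cell division. Hmga2, a chromatin protein, is held down by let-7 microRNAs, whose maturation is blocked by LIN28B. Bmi1 belongs to Polycomb repressive complex PRC1, which silences the Cdkn2a locus. Tert is the catalytic subunit of telomerase. Klf4, Sall4, Nanog and Sox2 are transcription factors of the pluripotent state, and Klf4 is also widely used in differentiated cells, including cells of the vessel wall.

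Values are log2 intensities, so a difference of 1 is a 2-fold change. The arrays had medians of 5.59 to 5.72. Over all genes, arrays correlated at 0.997 to 0.998 (Pearson) within a group and at 0.958 to 0.991 across groups. The sorting markers were checked against the labels. Pdgfra had group means between 6.28 and 8.84, and Pecam1, which encodes CD31, had group means between 4.29 and 4.59. Ly6a, the gene of SCA1, was not analysed here. Markers of other cells varied across groups, and their part in the results below was not tested. Lyz2, a macrophage gene, had a mean of 8.46 to 9.14 in 4 groups and 5.35 in treated small colonies at passage 15, and the mean level of 8 macrophage and leukocyte markers ranged from 5.63 to 5.71 in untreated small colonies and from 4.97 to 5.05 in treated small colonies at passage 15. With passage in treated small colonies 3 of the 8 rose and 2 fell (24.6% and 21.4% of all genes). Their median change was 0.079, against 0.051 over all genes, and the mean level includes Lyz2. In each group 3 of those 8 were near background. Tnnt2, a cardiomyocyte gene, ranged over group means from 7.32 to 10.38, while Actc1, another, ranged from 6.99 to 7.45 and 3 of the 8 cardiomyocyte markers were near background in each group. Thy1, a stromal marker, had means of 10.33 and 10.63 in large colonies and of 5.11 to 5.49 in small ones. Col1a1, another, had means of 10.21 in large and 12.16 in untreated small colonies at passage 5. Of 7 stromal markers tested in that comparison, 2 were higher and 2 lower in large colonies (18.2% and 18% of all genes), with a median of 0.061. Rgs5, a pericyte marker, ran from 4.71 to 8.42 and was highest in large colonies at passage 5. Cspg4, another, ran from 6.12 to 9.03 and was lowest there. Xist, the X-inactivation transcript, read 8.93 to 10.88 across the arrays of these cells labelled male.

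Background was judged from the 1027 olfactory receptor genes on the array, a family read mainly in the neurons of the nose. A gene was called near background in a group where its mean lay below 4.89, the 95th percentile of the mean levels of those genes. By this rule Lin28b and Sox2 were near background in all 5 groups and Tert in 1, the treated small colonies at passage 15, where its mean was 4.89. The 3.19 median of the olfactory receptor genes and the 6.02 median of all genes frame the other values. Tert, Sall4 and Nanog had means between 4.89 and 6.00 in every group, above the background threshold but below the median of all genes, apart from that 1 value of Tert. Pecam1, on which the cells were sorted as negative, also lay below the threshold in every group.

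**Figure D1:**
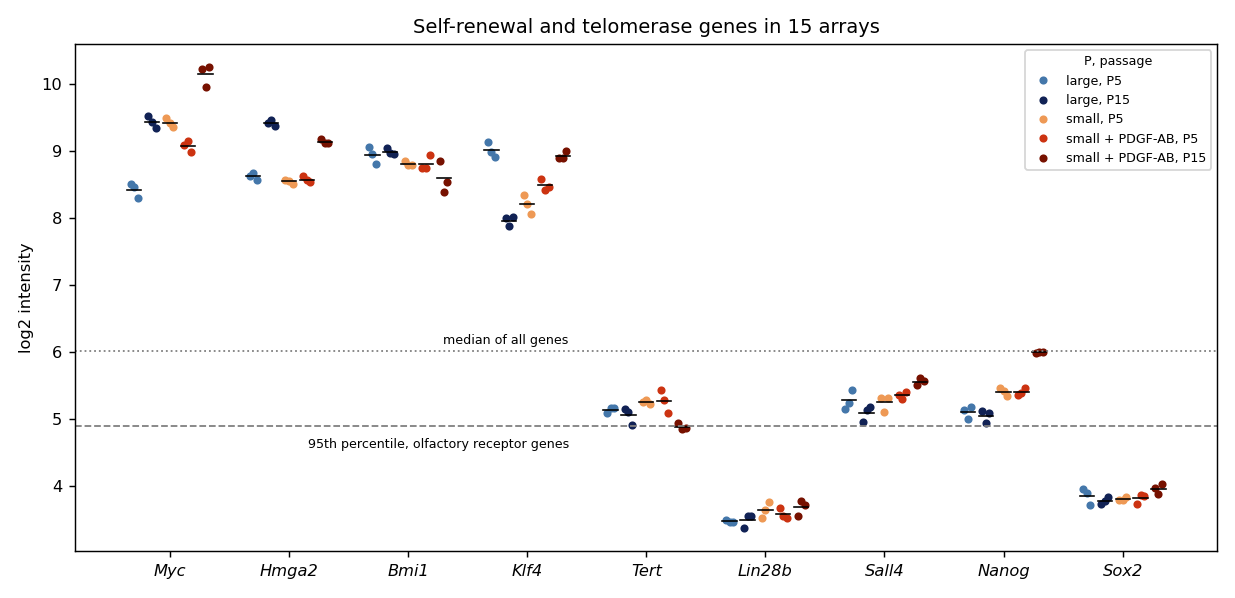
Log2 intensity of the 9 genes on the y axis, with each point 1 array, colour the group and the short black line the mean of 3 arrays. The dashed line marks the 95th percentile of the olfactory receptor genes at 4.89 and the dotted line the median of all genes at 6.02. Myc, Hmga2, Bmi1 and Klf4 lie above both lines in every array, with some groups overlapping, while Lin28b and Sox2 stay below the dashed line in all 5 groups.

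Differences between groups were tested with limma over all 15 arrays and 19938 genes, with Benjamini-Hochberg adjustment at 0.05, and a gene is said to rise, fall or differ only where it passed. Such calls were common over the whole array, and the counts for the 9 genes are read against that. Between passage 5 and passage 15, 3 of the 9 changed in untreated large colonies, where 36.1% of all genes changed. In treated small colonies 5 of the 9 changed with passage, where 46% of all genes changed. Large against small untreated colonies at passage 5 gave 3 of 9, with 36.2% of all genes called. PDGF-AB in small colonies at passage 5 gave 2 of 9, with 28.9% of all genes called. Treated small against untreated large colonies gave 7 of 9 at passage 15, with 53.4% of all genes called, and 3 of 9 at passage 5, with 35.7% of all genes called. The difference between both passage changes gave 5 of 9, with 34.4% of all genes called. Of these calls, those of at least 2-fold numbered 2 with passage in large colonies (3.77% of all genes), 1 with passage in treated small colonies (5.26%) and 1 for the difference (4.23%). There were 0 for colony size (3.93%), for PDGF-AB (1.39%) and for treated small against large colonies at passage 15 (4.64%) and at passage 5 (3.64%). Comparisons that use the same group share its arrays, so their values are set side by side and are not independent. In bulk RNA, fewer cells of a kind and less RNA per cell cannot be told apart.

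**Figure D2:**
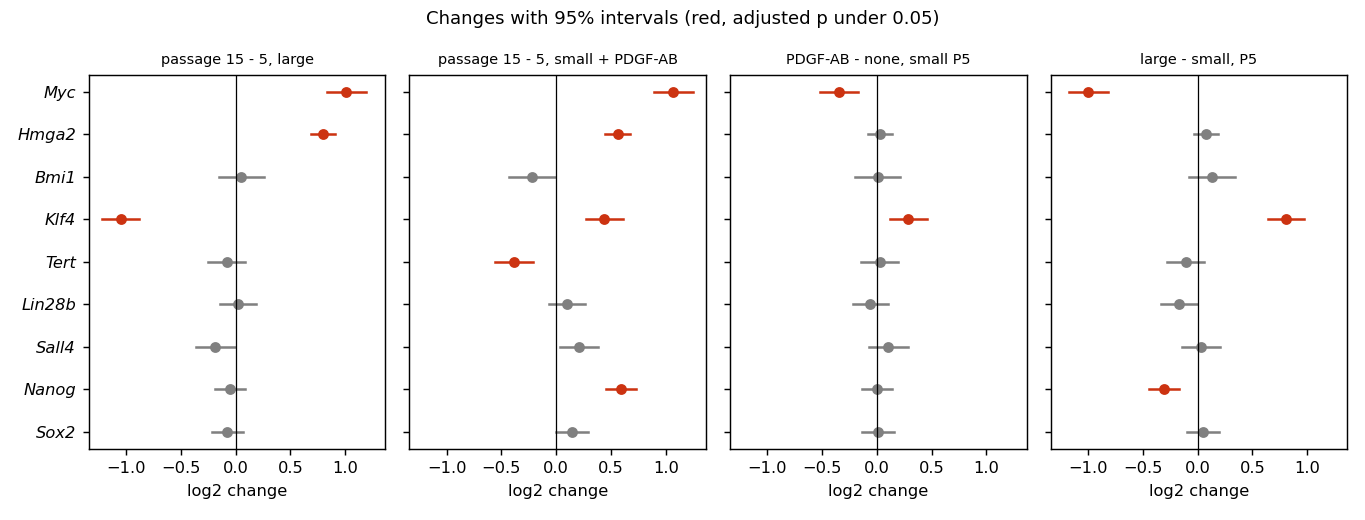
Log2 change of each gene on the x axis in 4 comparisons, with points the estimates, bars the 95% intervals of the fit and red those with an adjusted p under 0.05. Myc moved by about 1 in both passage comparisons, Klf4 fell by 1.05 with passage in large colonies and rose by 0.44 in treated small ones, and PDGF-AB at passage 5 moved Myc and Klf4 by less than 0.4.

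Myc lies at chr15:61985341-61990361 of mouse build GRCm38.p6. It read 8.51, 8.47 and 8.29 in the 3 arrays of untreated large colonies at passage 5, and 9.53, 9.43 and 9.34 at passage 15. Small colonies without PDGF-AB at passage 5 read 9.49, 9.42 and 9.35. Small colonies given PDGF-AB read 9.09, 9.15 and 8.99 at passage 5, and 10.22, 9.96 and 10.25 at passage 15. All arrays of large colonies at passage 5 lay below every other array, and all arrays of treated small colonies at passage 15 lay above. Large colonies at passage 15 and small colonies without PDGF-AB overlapped, with means of 9.43 ± 0.095 and 9.42 ± 0.067 (SD, n = 3).

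Myc rose with passage in both series of cultures. The rise was 1.01 (SE 0.0833, adjusted p = 4.7e-08) in untreated large colonies and 1.07 (adjusted p = 1.6e-08) in treated small colonies. Their difference was 0.058, with a 95% interval from -0.19 to 0.31 (adjusted p = 0.728). At passage 5 Myc was lower in large than in small untreated colonies (log2 difference -0.997, adjusted p = 5.2e-08). PDGF-AB lowered it in small colonies (log2 difference -0.35, adjusted p = 0.0048). Treated small colonies stayed above large ones at both passages, by 0.65 (adjusted p = 8.5e-06) at passage 5 and 0.71 (adjusted p = 2.6e-06) at passage 15.

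The chromosome that carries Myc moved in part with it. Over the brighter genes of chromosome 15, those no lower than the median level of all genes, the median change at passage 5 from small to large colonies was -0.33, which is -0.32 relative to all such genes. Under PDGF-AB it was -0.21, or -0.13 relative to all such genes, beside the -0.35 of Myc. With passage in large colonies it was 0.095 beside the 1.01 of Myc, and with passage in treated small colonies -0.067 beside 1.07. In treated small against large colonies at passage 5 it was 0.10, or 0.15 relative to all such genes, beside 0.65. At passage 15 it was -0.081 beside 0.71. For the difference of the passage changes it was -0.18, or -0.15 relative to all such genes, beside 0.058. The part of the chromosome in the result was not tested.

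Proliferation genes moved with Myc in 4 comparisons. Of 11 tested, all 11 rose with passage in large colonies (median 3.09, 17.4% of all genes) and all 11 in treated small colonies (median 3.36, 24.6% of all genes). All 11 fell with PDGF-AB (median -1.11, 18.2% of all genes), and 9 were lower in large than in small untreated colonies at passage 5 (median -0.99, 18% of all genes). In treated small against large colonies, where Myc was higher at both passages, 1 was higher and 4 lower at passage 5 (14.8% and 20.9% of all genes) and 4 were higher and 3 lower at passage 15 (29.2% and 24.2% of all genes). Mki67, the marker of cycling cells, had means of 5.41 and 8.18 in large colonies at passage 5 and 15, of 6.71 in untreated small colonies, and of 5.601 and 8.97 in treated small colonies at passage 5 and 15. Treated small colonies at passage 5 and large colonies at passage 5 had Mki67 means of 5.601 and 5.41, with Myc higher by 0.65 in the former. The part of proliferation in the Myc result was not tested.

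Textbook MYC target genes, which act in ribosome production, nucleotide and polyamine synthesis and mitochondrial folding, were also measured. Of 19 tested, 15 rose and 1 fell with passage in large colonies, where 17.4% of all genes rose and 18.7% fell. Their median change was 0.35, against -0.042 over all genes. Cad, the enzyme that starts pyrimidine synthesis, rose by 0.82 and the nucleolar proteins Fbl and Nop56 by 0.60 and 0.50. In treated small colonies 17 rose and 2 fell with passage (24.6% and 21.4% of all genes), with a median of 0.64 against 0.051 over all genes. There Cad rose by 1.21, the mitochondrial serine enzyme Shmt2 by 1.16, the mitochondrial chaperonin Hspd1 by 0.94 and the nucleolar Nop58 by 0.91.

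PDGF-AB at passage 5 lowered 11 of the 19 and raised 1 (18.2% and 10.7% of all genes), with a median of -0.27 against 0.016. Nop56 fell by 0.55, the RNA polymerase I subunit Polr1b by 0.45, Hspd1 by 0.39 and the nucleolar helicase Ddx21 by 0.37. Large against small untreated colonies gave 7 lower and 1 higher (18% and 18.2% of all genes), the lower ones including lactate dehydrogenase Ldha at -0.68, Nop56 at -0.57, Fbl at -0.50 and the polyamine enzyme Odc1 at -0.45. At passage 15, 13 were higher and 2 lower in treated small than in large colonies (29.2% and 24.2% of all genes). Shmt2 differed by 0.75, Hspd1 by 0.63, the RAN exchange factor Rcc1 by 0.58 and nucleolin, Ncl, by 0.41. At passage 5 the same comparison gave 4 higher and 8 lower (14.8% and 20.9% of all genes), with a median of -0.069. Ldha was higher by 0.74 and Cdk4, the G1 kinase, lower (log2 difference -0.28). The passage changes differed upward in treated small colonies for 10 and downward for 2 (18.6% and 15.9% of all genes), with Hspd1 at 0.95 and Ldha at -0.72.

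Of 12 partners and antagonists of MYC tested, 2 rose and 3 fell with passage in large colonies (17.4% and 18.7% of all genes), and 3 rose and 2 fell in treated small colonies (24.6% and 21.4% of all genes). Max, the obligate partner, fell by 0.49 with passage in large colonies, from 9.89 to 9.41. In treated small colonies it was 9.81 at passage 5 and 9.71 at passage 15. The passage changes of Max differed between both series by 0.39 (adjusted p = 0.0024). Mxd3, a MAX-binding antagonist, rose by 0.90 and 0.76 in large and treated small colonies, and Mxd1, another antagonist, fell by 0.23 and 0.25. Mlx, which pairs with the MONDO factors, fell by 0.59 in treated small colonies. Mycl, a paralog of Myc, rose by 0.55 under PDGF-AB, while Mxi1, an antagonist, fell by 0.21. Mycn, the other paralog, had means of 5.47 to 5.51 in 4 groups and rose by 0.26 with passage in treated small colonies, to 5.77.

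By pattern over the 15 arrays, the genes closest to Myc were Mov10, Sema3a and Fnbp1l. Likeness was the root mean square difference between levels centred on each gene, over 18276 genes. It was 0.141 for Mov10, an RNA helicase, 0.169 for Sema3a, a secreted guidance protein, and 0.170 for Fnbp1l, a membrane-bending adaptor. Mov10 had means of 7.35, 8.29, 8.47, 7.84 and 8.84 in the 5 groups in the order given above, against 8.42, 9.43, 9.42, 9.07 and 10.14 for Myc.

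Hmga2 lies at chr10:120361268-120476469. Its arrays read 8.63, 8.66 and 8.57 in large colonies at passage 5 and 9.42, 9.46 and 9.37 at passage 15. Untreated small colonies read 8.573, 8.559 and 8.503. Treated small colonies read 8.62, 8.56 and 8.53 at passage 5 and 9.17, 9.11 and 9.11 at passage 15. The 9 arrays at passage 5 lay between 8.503 and 8.66, and the groups among them overlapped. All 6 arrays at passage 15 lay above 9.1, with large colonies above treated small ones.

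Hmga2 rose with passage by 0.80 (SE 0.0527, adjusted p = 2.8e-09) in large colonies and by 0.56 (adjusted p = 1.6e-07) in treated small colonies. The rise was smaller in treated small colonies (log2 difference -0.24, adjusted p = 0.0218). Without large colonies at passage 5 replicate 3, large colonies at passage 15 replicate 2 or treated small colonies at passage 5 replicate 1, the adjusted p of that difference was 0.0596, 0.0511 and 0.0544. Over the brighter genes of chromosome 10 the median change with passage was 0.13 in large and -0.015 in treated small colonies. For the difference of the passage changes their median was -0.16, or -0.13 relative to all such genes. At passage 15 Hmga2 was lower in treated small than in large colonies (log2 difference -0.29, adjusted p = 2.8e-04), and the genes of chromosome 10 had a median of -0.39 in the same comparison. The part of the chromosome in these Hmga2 results was not tested. At passage 5 the difference between large and small untreated colonies was 0.077 (adjusted p = 0.286) and that with PDGF-AB 0.027, with a 95% interval from -0.084 to 0.14 (adjusted p = 0.736). The 3 groups of passage 5 had Hmga2 means of 8.55 to 8.62 where their Myc means ran from 8.42 to 9.42.

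Lin28b, the blocker of let-7 maturation, lies at chr10:45376617-45486314 and read 3.38 to 3.78 over all 15 arrays, near background throughout. The value 3.56 recurred in 4 arrays of 3 groups, 2 of large colonies at passage 15 and 1 of treated small colonies at each passage. No comparison called it, and the adjusted p was lowest, at 0.0508, for a difference of 0.19 between treated small and large colonies at passage 15. Its paralog Lin28a had means of 5.63 to 5.73 in 4 groups and of 6.12 in treated small colonies at passage 15, a rise of 0.39 with passage there (adjusted p = 0.0014).

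The let-7 microRNAs are shown for the seed through which they bind targets such as Hmga2. The mature sequences of 4 loci with group means above the background threshold in at least 1 group are printed with the seed, bases 2 to 8, in capitals. They are from RefSeq on GRCm38.p6.
let-7c, chr16:77599672-77599693, plus strand: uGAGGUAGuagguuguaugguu
let-7e, chr17:17830366-17830387, plus strand: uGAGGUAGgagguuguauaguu
let-7i, chr10:122985698-122985719, minus strand: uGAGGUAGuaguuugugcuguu
let-7d, chr13:48536078-48536099, minus strand: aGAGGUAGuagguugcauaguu
Of 9 let-7 loci on the array, 8 matched a mature entry, with 7 distinct sequences and 1 seed, GAGGUAG, in all of them.

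Levels at let-7 loci are those of probe sets made for the whole transcript, which do not separate precursor from mature RNA, and the family was added after its values had been seen, so it is described with no test. Of the 9 loci, 5 were near background in all groups. Mirlet7e had means of 5.69 in large colonies at passage 5 and 5.51 at passage 15, of 6.21 in untreated small colonies, and of 6.76 and 5.80 in treated small colonies at passage 5 and 15. Mirlet7c-1 read 4.37 and 3.52 in large colonies at passage 5 and 15, 5.73 in untreated small colonies, and 5.46 and 4.16 in treated small ones. Mirlet7d read 5.59 and 4.93 in treated small colonies at passage 5 and 15, and 5.28 and 5.23 in large ones. Mirlet7i stayed between 6.10 and 6.58 over the 5 group means. Across the groups of passage 5, Mirlet7e means ran from 5.69 to 6.76 and Hmga2 means from 8.55 to 8.62.

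Other genes of the LIN28, let-7 and HMGA axis changed in both directions. Of 13 tested, 5 rose and 1 fell with passage in large colonies (17.4% and 18.7% of all genes), and 8 rose and 3 fell in treated small colonies (24.6% and 21.4% of all genes). Igf2, a fetal growth factor, had means of 9.05 and 11.07 in large colonies at passage 5 and 15, of 5.59 in untreated small colonies, and of 7.72 and 5.48 in treated small colonies. It rose by 2.02 with passage in large colonies, fell by 2.24 in treated small colonies and rose by 2.14 under PDGF-AB. Igf2bp1, which binds Igf2 and Myc messenger RNA and is a let-7 target, rose by 1.42 and 1.13 with passage in large and treated small colonies. It was lower in large than in small untreated colonies at passage 5 (log2 difference -1.55) and fell by 0.33 under PDGF-AB. Igf2bp3, its paralog, was lower in treated small than in large colonies at passage 15 (log2 difference -0.79). Plagl2, a zinc finger factor, rose with passage in both, by 0.49 and 0.62. Of the microRNA processing genes, Drosha fell by 0.33 under PDGF-AB, Dgcr8 rose by 0.45 with passage in treated small colonies and Dicer1 was higher by 0.66 in treated small than in large colonies at passage 15.

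Bmi1 lies at chr2:18677018-18686629. Its arrays read 9.06, 8.95 and 8.81 in large colonies at passage 5, and 9.04, 8.97 and 8.96 at passage 15. Untreated small colonies read 8.84, 8.79 and 8.79. Treated small colonies read 8.74, 8.75 and 8.94 at passage 5, and 8.85, 8.38 and 8.54 at passage 15. Neighbouring groups overlapped throughout the order of means, and the 5 group means spanned 0.40.

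Bmi1 differed in 1 comparison. At passage 15 it was lower in treated small than in large colonies (log2 difference -0.40, SE 0.0977, adjusted p = 0.0029), and all 3 arrays of 1 group lay apart from those of the other. With passage the change was 0.052 (adjusted p = 0.728) in large colonies and -0.22 (adjusted p = 0.0774) in treated small ones. The latter depended on 1 array. Without treated small colonies at passage 15 replicate 1, at 8.85, it was -0.35 (adjusted p = 0.0032). PDGF-AB at passage 5 gave 0.0056, with a 95% interval from -0.20 to 0.21.

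Of 19 other Polycomb subunits tested, 5 rose and 3 fell with passage in large colonies (17.4% and 18.7% of all genes), and 4 rose and 7 fell in treated small colonies (24.6% and 21.4% of all genes). Ezh2, the methyltransferase of PRC2, rose by 1.603 and 2.05 and fell by 0.86 under PDGF-AB, with means of 7.69, 9.29, 7.93, 7.08 and 9.12 in the 5 groups. Cbx2, a chromodomain subunit of PRC1, rose by 0.87 and 0.73 with passage, while Cbx7, another such subunit, fell by 0.73 in large colonies. Pcgf5, a paralog of Bmi1 in variant PRC1, fell by 0.61 and 1.28 with passage and rose by 0.36 under PDGF-AB. At passage 15 4 of the subunits lower in treated small than in large colonies were Pcgf5 at -1.27, Pcgf1 at -0.67, Pcgf6 at -0.61 and Ezh1, the paralog of Ezh2, at -0.62. There 6 of the 19 were lower and 1 was higher (24.2% and 29.2% of all genes), with a median of -0.11 against 0.069 over all genes.

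The CDK inhibitor genes Cdkn2a and Cdkn2b, which halt the cycle and which PRC1 represses, fell with passage in large colonies, by 0.44 and 0.75. In treated small colonies Cdkn2b fell by 0.98, and the change of Cdkn2a was -0.16 (adjusted p = 0.0974). PDGF-AB raised them by 0.38 and 0.68. They were higher in large than in small untreated colonies at passage 5, by 0.33 and 1.08. Bmi1 did not pass the test in any of these 4 comparisons, apart from the alternatives given above for passage in treated small colonies. At passage 15, where Bmi1 was lower in treated small than in large colonies, Cdkn2a was higher by 0.33 and Cdkn2b lower (log2 difference -0.63). The part of Bmi1 in the changes of these genes was not tested. Cdkn1a was named together with another gene and was not analysed here.

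Klf4 lies at chr4:55527137-55532475. Large colonies read 9.14, 8.99 and 8.91 at passage 5 and 8.00, 7.88 and 8.01 at passage 15. Untreated small colonies read 8.34, 8.21 and 8.06. Treated small colonies read 8.59, 8.42 and 8.47 at passage 5 and 8.90, 8.90 and 8.996 at passage 15. Large colonies at passage 5 and treated small colonies at passage 15 overlapped at the top, and each lower group in the order was separate from the next.

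Klf4 changed in opposite directions with passage. It fell by 1.05 (SE 0.0794, adjusted p = 1.6e-08) in untreated large colonies and rose by 0.44 (adjusted p = 2.2e-04) in treated small colonies, a difference of 1.49 (SE 0.112, adjusted p = 3.0e-08). At passage 5 it was higher in large than in small untreated colonies by 0.81 (adjusted p = 3.8e-07) and lower in treated small than in large colonies (log2 difference -0.52, adjusted p = 5.6e-05). At passage 15 the order was turned, with treated small colonies higher by 0.97 (adjusted p = 3.6e-08). The median of the genes of chromosome 4 was 0.14 in that comparison and 0.14 in the one at passage 5.

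PDGF-AB raised Klf4 in small colonies at passage 5 by 0.29 (adjusted p = 0.0121), while the genes of chromosome 4 had a median change of 0.12, which is 0.20 above all such genes. Without untreated small colonies replicate 3 the adjusted p was 0.0615 and without treated small colonies at passage 5 replicate 1 it was 0.0564. The part of the chromosome in this result was not tested. In small colonies Myc and Klf4 thus moved in opposite directions under PDGF-AB, and with later passage in its presence both rose.

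Paralogs of Klf4 had patterns of their own. Klf10, a TGF-β-induced factor, rose with passage by 0.98 in large and 1.04 in treated small colonies and fell by 0.47 under PDGF-AB. Klf9 fell by 0.45 with passage in large colonies and was lower (log2 difference -0.73) in treated small than in large colonies at passage 15. Klf5 rose by 0.62 with passage in treated small colonies. Klf2, a flow-responsive factor of endothelium, rose by 0.41 under PDGF-AB, as did Klf6 by 0.25. The genes nearest to Klf4 by the same measure were Col4a6, a basement membrane collagen chain, at 0.161, Adamts5, an aggrecan-cleaving protease, at 0.170 and the pseudogene Gpr137b-ps at 0.176. Adamts5 had means of 11.82, 10.81, 10.87, 11.20 and 11.33 in the 5 groups.

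Promoters of Hmga2, Klf4 and Tert are printed with any match marked of the E-box read by MYC and MAX and the GC box read by KLF and SP factors. Those of Hmga2 and Tert hold the GC box but no E-box. Each is the 250 bases before the gene's start, from RefSeq on GRCm38.p6, read along the gene. Capitals mark CACGTG, which is its own reverse complement, and CCGCCC or its reverse complement GGGCGG. Neighbouring matches of the GC box may overlap, and the E-box and GC box share no whole site.
Hmga2, chr10:120476470-120476719, minus strand: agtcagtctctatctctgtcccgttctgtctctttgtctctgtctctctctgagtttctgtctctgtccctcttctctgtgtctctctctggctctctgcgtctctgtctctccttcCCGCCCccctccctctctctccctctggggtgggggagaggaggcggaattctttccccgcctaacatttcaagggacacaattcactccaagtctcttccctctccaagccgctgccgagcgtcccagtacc
Klf4, chr4:55532476-55532725, minus strand: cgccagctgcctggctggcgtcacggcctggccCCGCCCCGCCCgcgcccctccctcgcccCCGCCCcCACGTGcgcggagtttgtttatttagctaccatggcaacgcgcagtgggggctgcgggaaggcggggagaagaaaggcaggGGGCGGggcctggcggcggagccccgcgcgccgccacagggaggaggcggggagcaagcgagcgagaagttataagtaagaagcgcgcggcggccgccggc
Tert, chr13:73626661-73626910, plus strand: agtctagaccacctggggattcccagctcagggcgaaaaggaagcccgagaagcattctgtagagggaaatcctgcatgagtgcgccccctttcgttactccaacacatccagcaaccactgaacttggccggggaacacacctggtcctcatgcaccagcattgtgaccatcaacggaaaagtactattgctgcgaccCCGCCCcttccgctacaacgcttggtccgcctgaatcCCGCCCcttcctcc
Over 32851 promoters of this length, 6.02% hold the E-box and 32.7% the GC box. Of the 9 genes 7 had an entry, and the E-box was found in Bmi1, Klf4 and Lin28b and the GC box in Bmi1, Hmga2, Klf4, Sox2 and Tert. In Klf4 the E-box begins 182 bases before the start, and in Tert both GC boxes begin 51 and 14 bases before it. Among textbook MYC target genes 4 of 17 with an entry held the E-box and 12 of 17 the GC box, and among telomerase genes 1 of 8 and 3 of 8. These are matches of letters and show no binding.

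Tert lies at chr13:73626911-73649843. Large colonies read 5.09, 5.17 and 5.17 at passage 5 and 5.16, 5.11 and 4.91 at passage 15. Untreated small colonies read 5.25, 5.28 and 5.22. Treated small colonies read 5.44, 5.28 and 5.10 at passage 5 and 4.95, 4.85 and 4.87 at passage 15. The arrays of treated small colonies at passage 15 lay around the background threshold of 4.89, and the others lay above it.

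Tert fell with passage in treated small colonies, by 0.39 (SE 0.0804, adjusted p = 7.9e-04), from 5.27 to 4.89. The lower of these levels lay at the background threshold, which limits how such a change can be read. In large colonies the change was -0.080 (adjusted p = 0.488). The difference between both passage changes was -0.31 (adjusted p = 0.0474) and the call was lost on leaving out 1 array for 9 of the 12 arrays, with an adjusted p up to 0.125. PDGF-AB at passage 5 gave 0.024, with a 95% interval from -0.15 to 0.19 (adjusted p = 0.852).

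Telomerase partners rose while Tert did not. Of 10 tested, 6 rose and 0 fell with passage in large colonies (17.4% and 18.7% of all genes), with a median of 0.28 against -0.042 over all genes. In treated small colonies 8 rose and 0 fell (24.6% and 21.4% of all genes), with a median of 0.56 against 0.051. Dkc1, the pseudouridine synthase that binds the telomerase RNA, had means of 6.61, 7.79, 7.31, 6.42 and 8.27 in the 5 groups and rose by 1.17 and 1.85 with passage. The AAA ATPase Ruvbl2 rose by 0.78 and 0.79. Its partner Ruvbl1 rose by 0.83 and Nhp2, of the H/ACA core, by 0.66 in treated small colonies. Terc, the telomerase RNA, rose by 0.58 and 0.39, with means of 7.08 and 7.65 in large colonies at passage 5 and 15, 7.75 in untreated small colonies and 7.82 and 8.21 in treated ones. Dkc1, Nhp2, Nop10 and Gar1 also serve ribosomal RNA modification, and Ruvbl1 and Ruvbl2 serve other complexes.

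PDGF-AB at passage 5 lowered 6 of the 10 and raised 0 (18.2% and 10.7% of all genes), with a median of -0.30. Dkc1 fell by 0.89, Nop10, of the H/ACA core, by 0.49, Ruvbl1 by 0.45 and Shq1, an assembly chaperone of DKC1, by 0.39. The change of Terc was 0.067 (adjusted p = 0.596). In large against small untreated colonies 7 of the 10 were lower and 0 higher (18% and 18.2% of all genes), with Naf1, another assembly factor, at -0.75, Dkc1 at -0.69, Terc at -0.68 and Shq1 at -0.56. At passage 15 treated small colonies had 7 higher and 1 lower than large colonies (29.2% and 24.2% of all genes). The higher ones included Naf1 at 0.62, Dkc1 at 0.48, Ruvbl2 at 0.43 and Terc at 0.56. The difference in Tert was -0.17 (adjusted p = 0.0811), or -0.36 (adjusted p = 0.0028) after cyclic loess between arrays. Without loess, the brighter genes of chromosome 13, which carries Tert, had a median of -0.37 there, or -0.27 relative to all such genes. The part of the chromosome in the Tert difference was not tested.

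Genes that cap and maintain telomeres moved in part the same way. Of 13 tested, 6 rose and 0 fell with passage in large colonies (17.4% and 18.7% of all genes), and 6 rose and 1 fell in treated small colonies (24.6% and 21.4% of all genes). The shelterin bridge Tinf2 rose by 1.02 in large colonies, the CST subunits Stn1 and Ctc1 by 0.71 and 0.57 and the helicase Rtel1 by 0.69. In treated small colonies the shelterin protein Terf1, which binds the double-stranded repeat, rose by 1.33, Stn1 by 0.58, Rtel1 by 0.57 and the shelterin subunit Acd by 0.49. PDGF-AB lowered 6 and raised 0 (18.2% and 10.7% of all genes), among them Ten1 by 0.79, Terf1 by 0.64, Pot1a by 0.56 and Terf2ip by 0.22. At passage 15, 3 were higher and 6 lower in treated small than in large colonies (29.2% and 24.2% of all genes), with Pot1a, which binds the single-stranded overhang, at -0.68 and Terf1 at 0.57. Telomerase partners and several of these genes moved in the comparisons in which proliferation genes moved, and the part of proliferation in their changes was not tested.

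**Figure D3:**
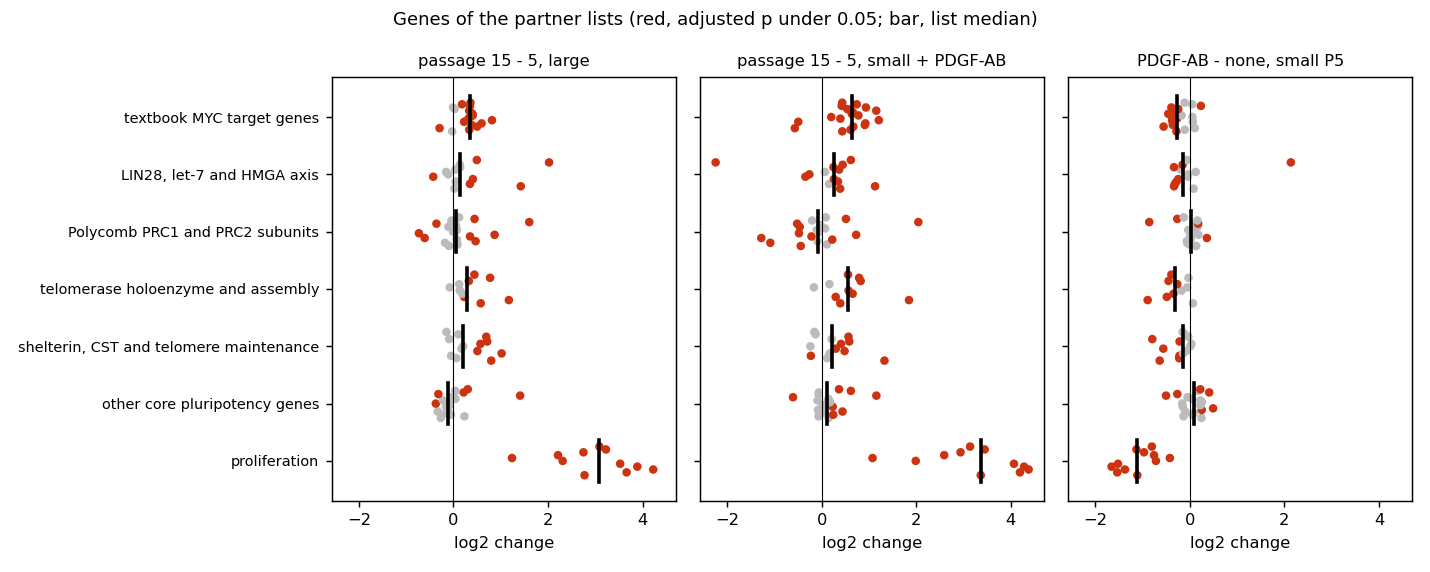
Log2 change on the x axis of every tested gene of 7 lists in 3 comparisons, with red points those with an adjusted p under 0.05 and the black bar the median of the list. Medians of MYC targets and telomerase genes lie above 0 with passage in both series and below 0 under PDGF-AB, and proliferation genes have medians of 3.09, 3.36 and -1.11 in the 3 panels.

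Nanog lies at chr6:122707489-122714633. Large colonies read 5.13, 5.00 and 5.18 at passage 5 and 5.13, 4.94 and 5.09 at passage 15. Untreated small colonies read 5.46, 5.41 and 5.34. Treated small colonies read 5.36, 5.40 and 5.47 at passage 5 and 5.99, 6.00 and 6.00 at passage 15. Small colonies lay above large ones in every array, and treated small colonies at passage 15 lay above all others.

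Nanog was lower in large than in small untreated colonies at passage 5 (log2 difference -0.30, SE 0.0648, adjusted p = 0.0013). It rose with passage in treated small colonies by 0.59 (adjusted p = 1.1e-06) and was higher there than in large colonies at passage 15 by 0.94 (adjusted p = 3.6e-09). In large colonies the passage change was -0.050 (adjusted p = 0.601), and the passage changes differed by 0.64 (adjusted p = 4.5e-05). PDGF-AB at passage 5 gave 0.0026, with a 95% interval from -0.13 to 0.14. The RefSeq table also lists pseudogenes of Nanog, and whether they add to this signal was not tested.

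Sall4, a zinc finger factor, lies at chr2:168748332-168767201 and read 4.96 to 5.61 over all arrays. Large colonies read 5.15, 5.24 and 5.44 at passage 5 and 4.96, 5.14 and 5.18 at passage 15. Treated small colonies read 5.36, 5.30 and 5.41 at passage 5 and 5.51, 5.61 and 5.56 at passage 15. At passage 15 it was higher in treated small than in large colonies by 0.47 (adjusted p = 1.9e-04). Its passage changes were -0.18 (adjusted p = 0.0959) in large and 0.21 (adjusted p = 0.0508) in treated small colonies, and they differed by 0.39 (adjusted p = 0.0163). Under cyclic loess between arrays that difference was 0.23 (adjusted p = 0.0847).

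Sox2, at chr3:34649995-34652461, read 3.71 to 4.03 over all arrays and was near background in each group. It was higher by 0.18 in treated small than in large colonies at passage 15 (adjusted p = 0.0354), a call lost on leaving out 1 array for 4 of the 6 arrays, with an adjusted p up to 0.126. After cyclic loess it was 0.040 (adjusted p = 0.704). No other comparison called it.

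Dim probe sets as a class also read higher in treated small colonies at passage 15. Against large colonies, all genes below the median level had a median difference of 0.144, and those at or above it -0.094. Of the 1027 olfactory receptor genes, 207 were higher and 15 lower (29.2% and 24.2% of all genes). In all 21.6% of them were called, where 53.4% of all genes were. Their median difference was 0.092, against 0.069 over all genes. The 46 olfactory receptor genes between the background threshold and the median of all genes lay in the range of Tert, Sall4 and Nanog. They had a median difference of 0.29 and reached 0.67. Their lowest was -0.034. The 0.94 of Nanog lay above that range, the 0.47 of Sall4 within it and the -0.17 of Tert below it. With passage in treated small colonies these 46 had a median of 0.15 and ran from -0.157 to 0.45, with the 0.59 of Nanog above and the -0.39 of Tert below. In the difference between passage changes they had a median of 0.26 and ran from -0.154 to 0.57, with the 0.39 of Sall4 within, the 0.64 of Nanog above and the -0.31 of Tert below. The 46 were delimited after values had been seen, and the part of this shift in the results was not tested.

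Other pluripotency genes were mostly dim. Of 19 tested, 9 to 11 were near background in each group, Pou5f1, which encodes OCT4, with group means of 4.06 to 4.46 among them. With passage 3 rose and 2 fell in large colonies (17.4% and 18.7% of all genes), and 6 rose and 1 fell in treated small colonies (24.6% and 21.4% of all genes). Tet1, a methylcytosine dioxygenase, rose by 1.41 and 1.16. Tbx3, a T-box factor also of heart development, rose by 0.30 and 0.37. Lefty1, an inhibitor of NODAL signalling, fell by 0.60 in treated small colonies, and Tfcp2l1 and Dnmt3l fell by 0.37 and 0.32 in large ones. PDGF-AB raised 4 and lowered 2 (10.7% and 18.2% of all genes), among them Klf2 by 0.41 and Tet1, which fell by 0.50. At passage 15, 8 of the 19 were higher and 2 lower in treated small than in large colonies (29.2% and 24.2% of all genes), with a median of 0.18. Of the SOX paralogs, Sox11 was higher by 2.04 and Sox4 by 0.81 in large than in small untreated colonies, and Sox9 rose by 0.68 and 1.41 with passage in large and treated small colonies.

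**Figure D4:**
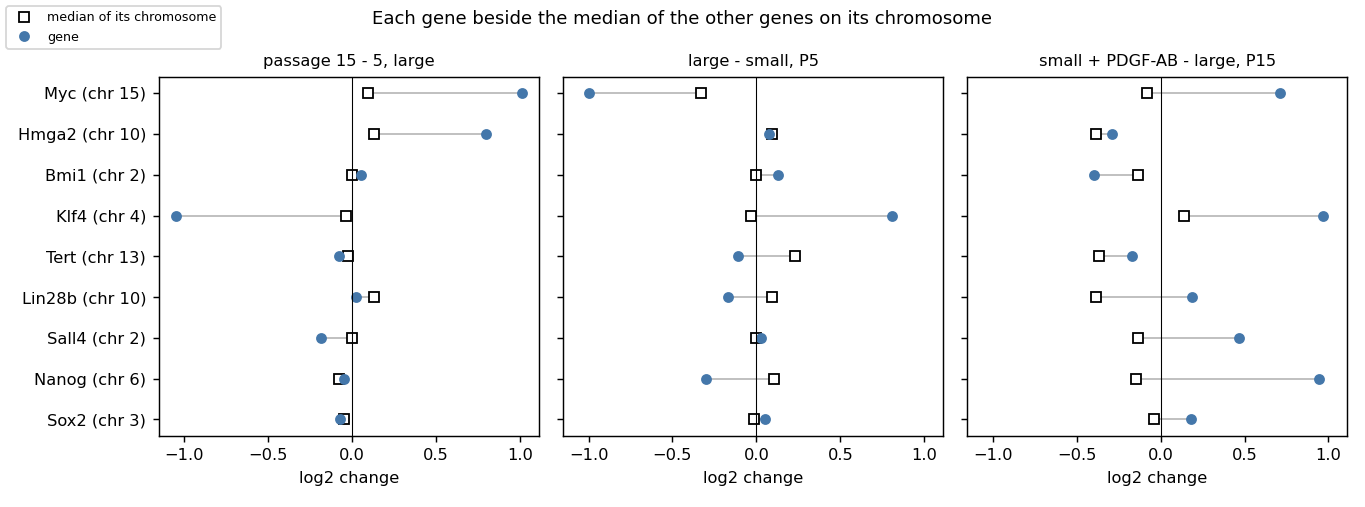
Log2 change on the x axis of each gene (filled circle) and of the median of the brighter genes on its chromosome (open square) in 3 comparisons. Myc and Klf4 lie apart from their chromosomes at the changes given above, while Hmga2 at -0.29 lies beside its chromosome's -0.39 at passage 15. Nanog lies beside its chromosome with passage in large colonies, at -0.050 and -0.082, and apart from it in the other comparisons shown.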

How the data were processed

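The deposited values are log2 intensities made by the authors, 1 column per sample. RMA and limma are listed, without versions, in the submitters' processing notes. Background settings are not given in the sources used here. Labelled total RNA had been hybridised to Affymetrix whole-transcript arrays, per the labels' protocols.

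Of 28853 probe sets, 21789 named 1 gene, and the one with the highest mean was kept for each of 19938 genes. One limma 3.58.1 fit (R 4.3.3) over all 15 arrays had 10 residual degrees of freedom and a median SE of 0.0778. Coordinates and sequences are RefSeq's on GRCm38.p6. The precision is limited by the 3 arrays of a group.

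Named genes were the 9 genes, fixed partners, up to 4 called genes of each list by adjusted p, and the 3 nearest genes of a gene whose group means span at least 1. Members and lists were chosen with earlier results of these data known. The pipeline was tested on simulated data. Lists were described by counts and medians and given no test of their own. Genes named by no probe set of their own, such as Hmga1, Igf2bp2, Tep1 and Ccnb1, or together with another gene, such as Ppan and Cbx6, were not analysed here. Alternatives were centring, cyclic loess, a level filter, the mean over probe sets, the compared arrays alone, trend and robust moderation, a replicate block, a 2-fold minimum and leaving out each array.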

Additional observations from a re-analysis of the deposited data

Results flagged for a closer look

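Passage changes that differed between treated small and untreated large colonies, by limma's test of the difference with Benjamini-Hochberg adjustment over all genes, were found for 5 of the 9 genes. Of all genes, 34.4% were called in this test. Klf4 differed by 1.49 (adjusted p = 3.0e-08), falling in large and rising in treated small colonies. Nanog differed by 0.64 (adjusted p = 4.5e-05), with a rise in treated small colonies. Sall4 differed by 0.39 (adjusted p = 0.0163) at a level below the median of all genes, a call lost under cyclic loess (adjusted p = 0.0847). Hmga2 differed by -0.24 (adjusted p = 0.0218), with a rise in both, and the call was lost in 3 leave-one-out fits. The brighter genes of chromosome 10, which carries Hmga2, had a median of -0.16 in the same difference. Tert differed by -0.31 (adjusted p = 0.0474), with treated small colonies at passage 15 at the background threshold. The Tert call was lost in 9 leave-one-out fits. Colony size and PDGF-AB cannot be told apart in these differences.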

How the results depend on the processing

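Counts of called genes among the 9 moved as follows. A minimum of 2-fold left 2 of 3 for passage in large colonies, 1 of 5 for passage in treated small colonies, 0 of 3 for colony size, 0 of 2 for PDGF-AB, 0 of 7 and 0 of 3 for treated small against large colonies at passage 15 and 5, and 1 of 5 for the difference of the passage changes. Leaving out genes below the median level, which removes 5 of the 9, left 4 of 7 at passage 15 and 2 of 5 for the difference. Leaving out each array in turn gave 1 to 2 for PDGF-AB and 3 to 6 for the difference. With the median of all genes as threshold 5 genes were near background, and with the 75th percentile of the olfactory receptor genes 1. Signs turned only for changes not called. Under cyclic loess these were Nanog with passage in large colonies (0.0083), Sall4 for colony size (-0.021), Tert, Nanog and Sox2 under PDGF-AB (-0.048, -0.059 and -0.049), Hmga2 between treated small and large colonies at passage 5 (0.033) and Lin28b for the difference (-0.031), and under centring Lin28b with passage in large colonies (-0.024). Leaving out 1 array gave ranges across 0 for passage in large colonies in Bmi1 (-0.014 to 0.112), Lin28b (-0.0055 to 0.0855) and Nanog (-0.102 to 0.0055), for colony size in Sall4 (-0.052 to 0.093) and Sox2 (-0.0027 to 0.119), for PDGF-AB in Bmi1 (-0.060 to 0.042), Tert (-0.059 to 0.113), Lin28b (-0.122 to 0.0001), Nanog (-0.030 to 0.031) and Sox2 (-0.016 to 0.053), and between treated small and large colonies at passage 5 in Sox2 (-0.108 to 0.014). The cause was not tested. Beyond the 2-fold minimum and single arrays, a call crossed the threshold 14 times, counted per gene, comparison and alternative. Centring called Bmi1 with passage in treated small colonies (adjusted p = 0.0393), Sall4 with passage in large colonies (0.0388) and Lin28b at passage 15 (0.0336). Cyclic loess called Lin28b for colony size (0.0334) and Tert at passage 15 (0.0028) and lost Sall4 for the difference (0.0847) and Sox2 at passage 15 (0.704). Trend and robust moderation called that change of Bmi1 (0.0454) and lost Sox2 at passage 15 (0.0723) and Tert for the difference (0.0625). The level filter called Bmi1 (0.0462), and the compared arrays alone called Sall4 with passage in treated small colonies (0.0183) and lost Tert for the difference (0.0656). The fall of Tert with passage in treated small colonies held in each leave-one-out fit, at -0.47 to -0.30. Without small colonies at passage 15 replicate 1, Bmi1 passed with passage in treated small colonies. Centring moved the share of higher among called genes from 48.3% to 38% for passage in large colonies, from 37.1% to 47.8% for PDGF-AB and from 53.6% to 43.6% for passage in treated small colonies. Same-numbered arrays were taken as paired only where the correlations of their deviations passed a set minimum for all 3 pairs, which held in no comparison. For passage in large colonies 2 pairs passed it, at 0.208 and 0.202, and the other was just below it at 0.0984. With a replicate block, Sall4 also passed with passage in treated small colonies (adjusted p = 0.0356), 6 of 9 there, and no other call among the 9 changed. Each of the 9 had 1 probe set, so a second one could not be tried. With 3 arrays a group, signal over background limits Lin28b, Sox2 and Tert.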
